A study of Mus musculus with 20 samples.

Results

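Hippocampi of tumour-bearing mice treated with immune checkpoint inhibitors were compared with those of tumour-free mice given isotype antibody. The libraries were chosen by their titles, 5 of melanoma plus inhibitors and 5 of control, which make 10 of the 20 libraries of the series. All mice were male, wild type and 10 to 12 weeks old, and each library is a single frozen hippocampus from a separate animal, measured by bulk RNA sequencing. The control mice carried no tumour and received isotype-matched control antibody by intraperitoneal injection. The melanoma plus inhibitor mice (melanoma plus ICI) bore tumours of the syngeneic mouse melanoma line D4M-3A.UV2, from injections of 500000 cells into the skin on both sides, left to engraft for 1 week. Treatment then combined anti-CTLA-4 (1 mg, given 3 times a week) with anti-PD-1 (200 µg, given 2 times a week) for 3 weeks. Tissue was collected 72 hours after the final dose. The tumour and the antibodies differ together between the groups, so their shares in a difference cannot be told apart from these 10 libraries. The tumour was placed in the skin and not in the brain, and a single tumour line was used.

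CTLA-4 and PD-1 are inhibitory receptors of T cells. CTLA-4 competes with CD28 for CD80 and CD86 on antigen-presenting cells, and PD-1 damps signalling from the T cell receptor when it binds PD-L1 or PD-L2, so antibodies that block them release T cell responses. The hippocampus forms new memories through a circuit from granule cells of the dentate gyrus to pyramidal cells of fields CA3 and CA1. Its immune-competent cells are mainly microglia, with macrophages at its borders and vessels that admit few lymphocytes.

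The libraries held 22039606 to 25032254 counts in the control group and 22408042 to 25735149 in the melanoma plus ICI group, with 25339 to 26194 genes detected. Hippocampal and neuronal markers were present in all 10 libraries. Camk2a, a kinase subunit of excitatory neurons, lay between 2600 and 5920 counts per 1000000 (CPM), and Prox1, a transcription factor of dentate granule cells, between 21.9 and 181 CPM. In a principal component analysis of the 10 libraries, control replicate 4 and melanoma plus ICI replicate 1 stood apart on the leading component, which held 37.3% of the variance, at -71.4 and -57.4, while the other 8 lay between -18.2 and 42.4. Mitochondrially encoded genes took 5.10% of counts in control replicate 4 and 4.28% in melanoma plus ICI replicate 1, against 3.22% to 3.78% in the other 8. Melanoma plus ICI replicate 3 had a score of striatal neuron markers, the mean log2 CPM of the list, of 5.70, against 3.27 to 3.92 in the other 9.

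No gene passed the test between the groups. Of 18427 genes tested with edgeR's quasi-likelihood test, 0 (0%) had a Benjamini-Hochberg adjusted p under 0.05, and the smallest adjusted p was 0.9997. DESeq2 and limma voom with sample quality weights (weighted voom) also called 0 genes. Without adjustment, 438 genes (2.38%) had an edgeR p under 0.05, of which 203 were higher (1.10%) and 235 lower (1.28%) in melanoma plus ICI. DESeq2 gave 490 such genes and weighted voom, which changes both the test and the weight of each library, 985. With edgeR on only the 10 libraries the count was 261 (1.48%). In the fit over all groups it was 297 (1.6%) without control replicate 2, 965 (5.19%) without control replicate 1, 1089 (5.85%) without control replicate 4 and 740 (3.97%) without melanoma plus ICI replicate 1, still with 0 genes past the adjusted threshold. In 56 genes (0.304%) the 5 libraries of one group all lay above the 5 of the other, 29 higher and 27 lower in melanoma plus ICI. For 5 against 5 exchangeable libraries, full separation has a probability of 0.00794, which is larger than this share.

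The intervals around the fold changes state how large a difference these libraries leave room for. The median absolute log2 fold change was 0.10, beside a median standard error of 0.16. For 15400 genes (83.6%) the 95% interval lay wholly within a 2-fold change in either direction, and for 11376 (61.7%) within 1.5-fold. The precision depended on the level. Among 10462 genes with a mean of at least 10 CPM, 97.0% of the intervals lay within 2-fold and 87.4% within 1.5-fold. Among 2872 genes under 1 CPM, 37.9% lay within 2-fold, and the intervals of the others leave room for a larger difference.

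**Figure D1:**
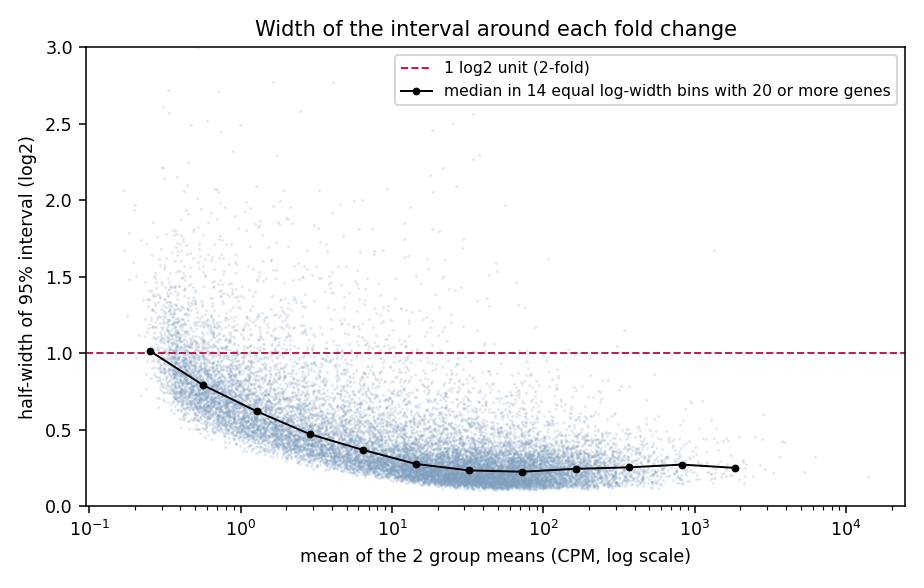
Distance from the fold change to either end of its 95% interval (log2 units) against the mean of both group means (CPM, log axis), with a point per gene, the dashed line at 1 log2 unit and black points at the median of each bin. The median distance is 0.82 in genes under 1 CPM and 0.25 in genes of at least 10 CPM, and 2 genes lie above the top of the axis at 3.

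The targets of both antibodies were close to undetected. Pdcd1, which encodes PD-1, had 3, 1, 3, 0 and 2 counts in the control libraries and 1, 0, 2, 4 and 5 in the melanoma plus ICI libraries (two-sided exact permutation test of CPM, p = 0.635). Ctla4 had 3, 2, 5, 0 and 1 counts against 2, 9, 2, 0 and 2 (exact permutation p = 0.706). Both groups overlapped in each gene, and 0.00794 is the smallest p that 5 against 5 libraries allow. Cd274, which encodes PD-L1, was at 2.30 ± 0.370 CPM in control and 1.98 ± 0.683 in melanoma plus ICI (SD, n = 5), and the log2 fold change was -0.21 with a 95% interval of -0.69 to 0.27.

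Of 17 listed checkpoint receptors and ligands, 10 passed the filter on low counts, and 1 of them, Btla, had an unadjusted p under 0.05, where 2.38% of all genes had one and 0.304% had groups without overlap. In all, 3 were above and 7 below a log2 fold change of 0. No member had an unadjusted p under 0.05 with DESeq2, with 4 tissue scores as covariates or without melanoma plus ICI replicate 1. Weighted voom gave 1 higher and 1 lower, in a fit where 5.35% of all genes had such a p in either direction. Btla, an inhibitory receptor of lymphocytes that binds HVEM, was at 0.470, 0.383, 0.456, 0.369 and 0.369 CPM in control and at 0.821, 0.611, 0.503, 0.553 and 0.712 CPM in melanoma plus ICI. The groups did not overlap, at a log2 fold change of 0.63 ± 0.24 (SE) and a 95% interval of 0.13 to 1.14. The adjusted p of edgeR was at least 0.9997, and the value rests on 48 counts in control and 78 in melanoma plus ICI over 5 libraries each. Btla was also at 0.634 ± 0.117 CPM in the 5 libraries of mice given inhibitors without a tumour and at 0.617 ± 0.208 CPM in the 5 of tumour-bearing mice given isotype antibody.

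T cell transcripts were sparse in both groups. Of 20 markers of T cells and natural killer cells, 4 passed the filter, and the summed level of all 20 lay between 3.28 and 4.56 CPM in control and between 2.59 and 5.87 CPM in melanoma plus ICI. Cd3e, a chain of the T cell receptor complex, had 6 counts over the control libraries and 10 over the melanoma plus ICI libraries. Cd8a, the co-receptor of cytotoxic T cells, had 3 and 11, and the granule protease Gzmb had 2 and 7. Other members were lower in melanoma plus ICI, among them Foxp3, the transcription factor of regulatory T cells, at a log2 fold change of -0.27, and Cd247, a signalling chain of the receptor complex, with 19 and 16 counts. Fitted without the filter, 14 of the 20 had a log2 fold change above 0, 5 had one below 0 and 2 had an unadjusted p under 0.05, beside 2.83% of all genes in that fit. Perforin (Prf1) had 0 counts in both groups, which allows up to 3 counts in each. None of 13 listed neutrophil and monocyte markers passed the filter, with summed levels of 0.745 to 1.43 CPM and 0.578 to 2.18 CPM. Of 10 pigment cell markers 5 passed the filter, 1 above and 4 below a log2 fold change of 0. The melanosome gene Pmel had 74 counts in control and 71 in melanoma plus ICI, Dct had 75 and 65, and Tyrp1 had 15 and 33.

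Since no gene passed, 9 higher and 10 lower genes from those with the smallest unadjusted p, among genes with a mean of at least 1 CPM, are given as a description. Their unadjusted p ran from 4.9e-04 to 0.00678, and the adjusted p of each was at least 0.9997 with edgeR. Because they were picked by this contrast, their values carry no further test. The groups did not overlap in 8 of these 19 genes, 3 higher and 5 lower. Under the other settings tried, the smallest adjusted p of these genes was 0.782.

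Among the 9 higher genes, the smallest p belonged to 4833418N02Rik, a processed transcript at chr17:87274886-87282814 on the minus strand. It was at 1.41, 1.11, 0.911, 1.29 and 1.31 CPM in control and at 1.64, 2.00, 1.94, 2.21 and 1.78 CPM in melanoma plus ICI. The groups did not overlap, and the log2 fold change was 0.66 ± 0.16 (SE). Nyap2, a neuronal adaptor that links to phosphoinositide 3-kinase, was at 29.7, 19.1, 21.3, 22.7 and 21.4 CPM in control and at 32.3, 28.8, 35.8, 34.0 and 30.0 CPM in melanoma plus ICI. Its groups overlapped only through control replicate 1, and the log2 fold change was 0.49 ± 0.12 (SE). Slc41a3, of a family of magnesium transporters, averaged 2.84 ± 0.313 CPM in control and 4.13 ± 0.579 in melanoma plus ICI (SD, n = 5), without overlap. Rasa2, a GTPase-activating protein that turns Ras off, averaged 24.9 ± 0.864 and 29.3 ± 1.87 CPM, also without overlap.

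Groups overlapped in the other higher genes. Hgf, hepatocyte growth factor, the ligand of the receptor Met, averaged 2.13 ± 0.678 CPM in control and 3.90 ± 0.921 in melanoma plus ICI. Adamts18, a secreted metalloprotease, averaged 1.00 ± 0.305 and 2.02 ± 0.918 CPM, with melanoma plus ICI replicate 5 at 0.801, inside the control range. Gpr165, an orphan receptor, averaged 3.99 ± 1.26 and 7.55 ± 3.11 CPM, and Tmem252, a membrane protein, 1.79 ± 0.612 and 3.68 ± 1.86 CPM. Arl4a, a small GTPase, averaged 27.9 ± 4.90 and 36.1 ± 3.57 CPM. Over the 9 genes the fold ran from 1.18 in Rasa2 to 2.06 in Tmem252.

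Among the 10 lower genes were several of known function at moderate levels. Dguok, the mitochondrial kinase that salvages deoxyguanosine for mitochondrial DNA, was at 17, 18.9, 17.8, 19.7 and 17.5 CPM in control and at 15.8, 15.8, 14.2, 15.8 and 15.4 CPM in melanoma plus ICI. Every melanoma plus ICI library lay below every control library, at a log2 fold change of -0.24 ± 0.07 (SE). Tarbp2, which encodes the Dicer partner TRBP, averaged 25.9 ± 1.17 and 22.1 ± 1.61 CPM (SD, n = 5), also without overlap. Mafa, a transcription factor best known from pancreatic beta cells, lay between 0.592 and 3.49 CPM in control and between 0.285 and 0.829 CPM in melanoma plus ICI, and Adam21, a membrane protein of the metalloprotease-disintegrin family, averaged 1.29 ± 0.376 and 0.720 ± 0.111 CPM, both with overlap.

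Several lower genes lie in spans that other genes overlap. Overlap was taken over whole genes, introns included. The shares below set the summed counts of the overlapping genes against those of the gene. How many reads could belong to either gene was not measured. Thpo, thrombopoietin, averaged 13.4 ± 1.72 CPM in control and 9.85 ± 1.80 in melanoma plus ICI without overlap, but genes that overlap it on the opposite strand held 886% of its counts, and strand use in the counting is not given in the sources used here. The opposite-strand share was 32.4% for the long noncoding RNA Gm26819 (11.4 ± 1.62 and 8.98 ± 0.809 CPM) and 24.1% for Gm42688 (4.84 ± 0.515 and 3.57 ± 0.505 CPM, no overlap). For 4930518I15Rik (1.61 ± 0.223 and 0.973 ± 0.239 CPM, no overlap) overlapping genes on the same strand held 294% of its counts. The noncoding genes Gm46123, at 3.08 ± 1.51 and 1.26 ± 0.302 CPM, and 1700110C19Rik, at 1.35 ± 0.444 and 0.834 ± 0.138 CPM, overlap no other gene.

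**Figure D2:**
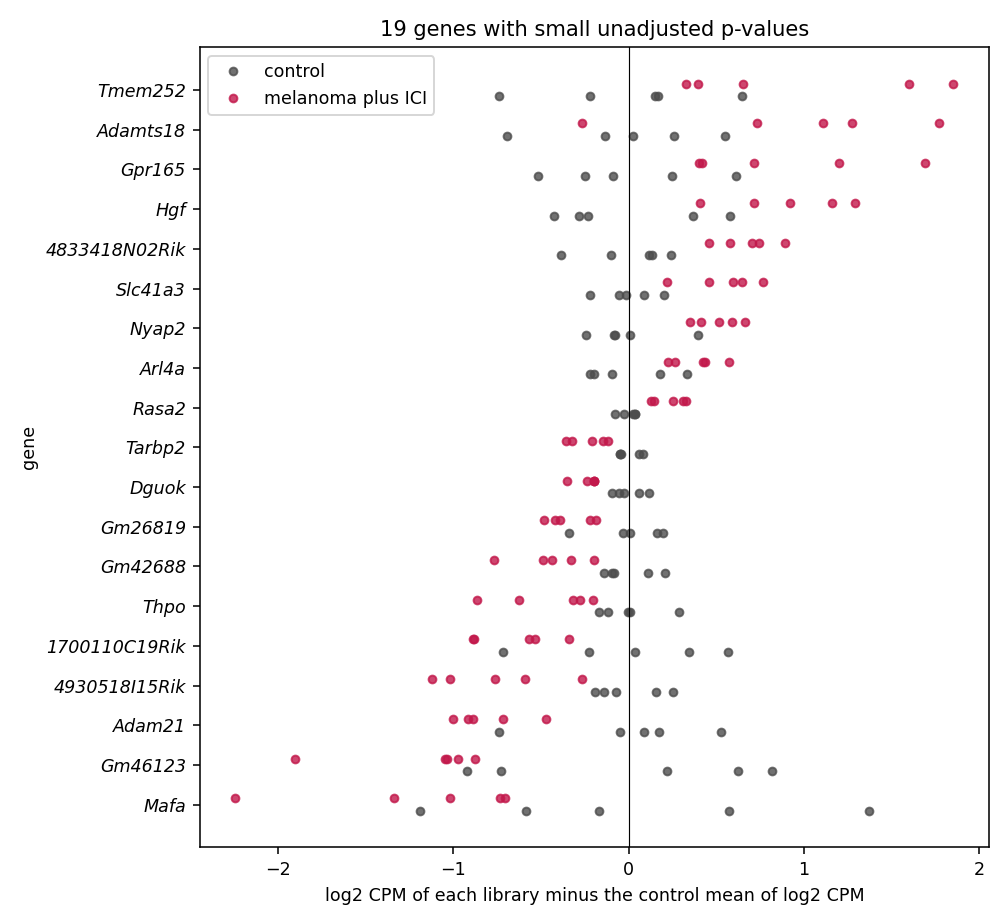
Each point is a library, placed at its log2 CPM minus the control mean of that gene (x axis, log2 units), for the 19 genes described above (y axis). Rasa2, Slc41a3 and 4833418N02Rik show melanoma plus ICI libraries wholly to the right of the control libraries, and Tarbp2, Dguok, Gm42688, Thpo and 4930518I15Rik wholly to the left.

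Among acute-phase and leukocyte-recruitment genes, Lcn2 and Nfkbia were high in 2 of the 5 melanoma plus ICI libraries and near control levels in the other 3. The 2 high libraries were replicate 1, the library at -57.4 on the leading component with 4.28% mitochondrially encoded counts, and replicate 3, with the striatal score of 5.70 and the lowest scores of CA1 (4.01) and dentate (3.49) markers. Genes of this list answer to NF-kappaB and related signals in vessels, astrocytes and microglia. Of 22 listed, 14 passed the filter, 9 were higher and 5 lower, and 4 had an unadjusted p under 0.05 (1.10% of all genes had one and were higher), all higher: Lcn2, Icam1, Ch25h and Nfkbia. Lcn2 was at 0.365 CPM or less in every control library and passed the filter only through tumour-bearing libraries where it was high. Its call therefore adds nothing to the comparison with that share. The median log2 fold change of the list was 0.15, beside 0.0026 over all genes tested, and no member passed the adjusted threshold. With the scores of choroid plexus, striatum, dentate gyrus and meninges as covariates, 3 were higher at an unadjusted p under 0.05 and the median was 0.16, while the part of the mitochondrial share was not tested. Without melanoma plus ICI replicate 1, 0 were higher and 2 lower at an unadjusted p under 0.05 (3.97% of all genes in that fit), and without control replicate 2, 2 were higher. Weighted voom gave 0 in either direction and a median of -0.05. With edgeR on only the 10 libraries it was 0 of 12 at a median of 0.08, but Lcn2 and Ch25h did not pass the filter there and were not tested. Without the filter on low counts, 9 of 22 were higher at an unadjusted p under 0.05, beside 2.83% of all genes in either direction, at a median of 0.42.

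Lcn2, lipocalin 2, a secreted iron-trapping protein, was at 0.118, 0.213, 0.365, 0.0923 and 0.123 CPM in control and at 3.37, 0.122, 2.17, 0.0790 and 0.133 CPM in melanoma plus ICI. Replicates 1 and 3 were above every control library, and the other 3 lay within or just below the control range. Values were also uneven in tumour-bearing mice given isotype antibody, at 2.52, 0.213, 0.607, 2.88 and 0.304 CPM. Mice given inhibitors without a tumour lay between 0 and 0.172 CPM. The log2 fold change of melanoma plus ICI against control was 2.67 with a 95% interval of 0.60 to 4.74. It was 1.78 without replicate 1 and 2.33 without replicate 3, and weighted voom gave -0.18. Sgk1, a kinase induced by glucocorticoids and other stimuli, followed the same libraries, at 152, 41.3, 256, 58.3 and 52.3 CPM in melanoma plus ICI against 44 to 93.2 CPM in control, at a log2 fold change of 0.76. It was 0.20 without replicate 3, and weighted voom gave -0.06. Of 20 glucocorticoid-responsive genes 13 were above 0, and 4 without melanoma plus ICI replicate 3. Of 25 immediate early genes, which neurons switch on within minutes of activity, 18 were above 0, and 5 without replicate 1.

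Nfkbia encodes the NF-kappaB inhibitor IkappaB alpha, itself an NF-kappaB target that closes the feedback loop. It was at 16.7, 15.8, 15.5, 23.1 and 17.3 CPM in control and at 36.5, 14.1, 37.8, 17 and 17.5 CPM in melanoma plus ICI, again with replicates 1 and 3 above all controls. The log2 fold change was 0.48 (95% interval 0.007 to 0.95), and 0.28 without replicate 1 or 0.27 without replicate 3. The 5 libraries of tumour-bearing mice given isotype antibody lay between 25.3 and 35.5 CPM, a comparison that shares these controls. The 250 bases before the gene's start, from RefSeq on GRCm38.p6 at chr12:55492648-55492897, minus strand, are shown because they carry a kappaB-like motif, in capitals.

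Nfkbia, 250 bases before the start: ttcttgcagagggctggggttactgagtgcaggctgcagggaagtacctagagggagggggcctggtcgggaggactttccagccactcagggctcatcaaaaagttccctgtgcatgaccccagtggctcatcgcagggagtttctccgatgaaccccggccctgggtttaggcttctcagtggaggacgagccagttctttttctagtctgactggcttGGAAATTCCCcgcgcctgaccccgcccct

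The motif searched was GGGA and TTTCC with any base between them, on both strands, and the match above is its reverse complement, whose outer end lies 29 bases before the start of the gene. It occurs in the same window of 117 of 32851 RefSeq promoters (0.356%), and in 2 of the 19 acute-phase genes that had a promoter sequence, Nfkbia and Cxcl1. The same window of Lcn2 held no match. The first count is of promoters and the second of genes, so they are not directly comparable. A match is a description of the letters and was not linked to binding.

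Icam1, the endothelial adhesion molecule that holds leukocytes, was at 19.6 CPM in melanoma plus ICI replicate 1 and between 2.05 and 3.40 CPM in the other 4, against 1.94 to 3.55 CPM in control. Its log2 fold change of 1.19 was 0.01 without that library. Opposite-strand genes overlapping its span held 172% of its counts, by the whole-gene measure given above. Ch25h, which makes 25-hydroxycholesterol, was at 2.22, 0.489, 1.08, 0.316 and 0.267 CPM in melanoma plus ICI against 0.170 to 0.705 CPM in control. Its log2 fold change of 1.40 was 0.70 without replicate 1, and by the same measure opposite-strand genes held 180% of its counts. Vcam1, another endothelial adhesion molecule, averaged 31.5 ± 2.94 CPM in control and 40.3 ± 11.7 in melanoma plus ICI, and the interval of its log2 fold change ran from -0.002 to 0.71.

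**Figure D3:**
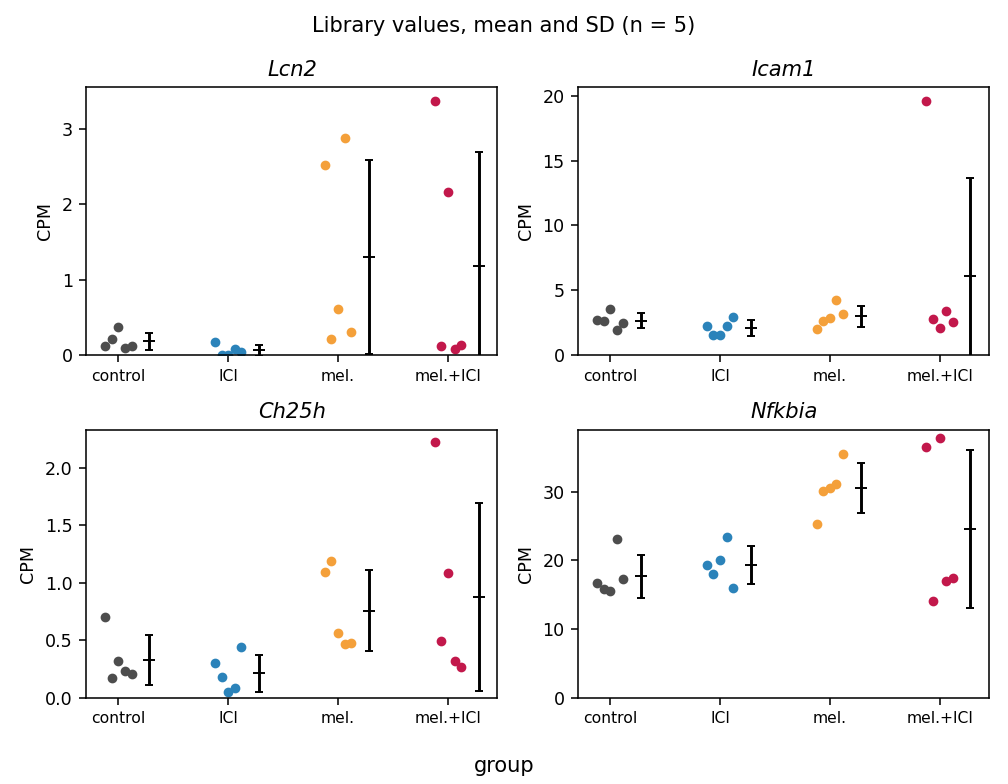
CPM of each library (points) with mean and SD (bars, n = 5) for Lcn2, Icam1, Ch25h and Nfkbia in the control, ICI, melanoma (mel.) and melanoma plus ICI (mel.+ICI) groups. Lcn2 and Nfkbia split the melanoma plus ICI libraries into 2 high and 3 low, and Icam1 has a single high library at 19.6 CPM.

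Cholesterol synthesis and uptake genes were mostly slightly higher. Neurons and astrocytes make their own cholesterol, since plasma lipoproteins do not cross the blood-brain barrier, and the pathway is switched on through SREBP2 when sterols are low. Of 20 listed genes, all tested, 18 (90% against 50.7% of all genes) had a log2 fold change above 0, with a median of 0.13. Without adjustment 2 of them, both higher, had a p under 0.05, against 2.38% of all genes, and 0 passed the adjusted threshold. That number was 6 without control replicate 4 (5.85% of all genes), 4 without control replicate 1 (5.19%) or melanoma plus ICI replicate 4 (2.31%), 1 without control replicate 2, melanoma plus ICI replicate 1 or replicate 3 and with weighted voom, and 0 with 4 tissue scores as covariates. Fold changes of all 20 lay within 2-fold by their intervals, and 18 within 1.5-fold.

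Sqle, squalene epoxidase, was 0.18 higher on the log2 scale and Insig1, which holds SREBP in the endoplasmic reticulum, 0.21 higher, both with an interval that held 0. The members below 0 were Apoe, the main lipoprotein of the brain, at -0.08, and the sterol exporter Abcg1 at -0.05. The number above 0 lay between 14 and 18 when single libraries were left out, and with 4 tissue scores as covariates it was 14, at a median of 0.06.

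Microglial genes lay on both sides of 0. No member of the microglial and complement lists had an unadjusted p under 0.05, which is near the 2.38% of all genes. Among 20 homeostatic microglial genes, 8 were higher and 12 lower, with a median log2 fold change of -0.08 and 19 intervals within 1.5-fold. Tmem119, a marker that sets microglia apart from other macrophages, averaged 21.0 ± 2.05 CPM in control and 18.3 ± 2.02 in melanoma plus ICI, and its log2 fold change was -0.20 (95% interval -0.40 to 0.005). Aif1, which encodes IBA1, averaged 3.23 ± 1.08 and 3.34 ± 0.441 CPM, with control replicate 4 at 5.17 and the other controls at 2.69 to 2.78. Of 19 tested reactive microglial genes, 5 were higher and 14 lower (9 lower without control replicate 2). Cd68, a lysosomal protein of phagocytes, averaged 6.50 ± 0.864 and 6.05 ± 0.521 CPM, and the interval of its log2 fold change ran from -0.34 to 0.13. C1qa, the complement subunit that tags synapses, averaged 34.6 ± 11.4 and 31.2 ± 3.88 CPM, a log2 fold change of -0.15 that was 0.07 without control replicate 4, which stood at 54.8. Of 18 complement genes, 13 were higher, at a median of 0.09.

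Interferon and class I presentation genes also lay on both sides of 0. Of 22 type I interferon genes tested, 11 were higher and 11 lower, with a median log2 fold change of 0.004 (7 higher without control replicate 2). Ifit2, an RNA-binding effector of that response, averaged 8.50 ± 1.26 CPM in control and 9.75 ± 1.34 in melanoma plus ICI. Of 23 genes of MHC class I presentation, 9 were higher and 14 lower (7 lower without control replicate 4), and 22 intervals lay within 2-fold. MHC class II and border macrophage genes were above 0 in 12 of 13, at a median of 0.35, but only 3 intervals lay within 2-fold. Cd74, the invariant chain of class II, was at 4.62, 5.23, 3.33, 1.98 and 6.89 CPM in control and at 2.96, 7.41, 5.73, 10.9 and 4.89 CPM in melanoma plus ICI, so the groups overlapped. With the scores of choroid plexus, striatum, dentate gyrus and meninges as covariates, 3 of 13 were above 0 and the median was -0.07. Meningeal fibroblast markers were above 0 in 14 of 14, at a median of 0.36 that ran from 0.20 without melanoma plus ICI replicate 2 to 0.815 without control replicate 1, with scores of 2.64 to 4.31 in control and 3.21 to 4.45 in melanoma plus ICI. In bulk tissue, fewer cells of a type and less RNA per cell cannot be told apart.

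Genes of astrocyte transport and of vessels lay near 0, and those of reactive astrocytes varied more. Gfap, the intermediate filament that reactive astrocytes make in excess, was at 290, 433, 369, 307 and 334 CPM in control and at 306, 312, 190, 345 and 335 CPM in melanoma plus ICI. Its lowest value was that of replicate 3, the library with high striatal markers, and the log2 fold change was -0.22 (95% interval -0.56 to 0.12). Of 26 tested genes of reactive astrocytes, 17 were above 0, at a median of 0.15, and 5 intervals lay within 1.5-fold. An unadjusted p under 0.05 was found in 1 gene, Lcn2, near the 2.38% of all genes. Lcn2 passed the filter only through tumour-bearing libraries where it was high, so its call says nothing about the list. Of 18 astrocyte transport and metabolism genes, 7 were above 0, at a median of -0.01, and 16 intervals lay within 1.5-fold. Slc1a2, the main glutamate transporter, averaged 2140 ± 406 and 2040 ± 373 CPM. All 30 endothelial and blood-brain barrier genes had intervals within 1.5-fold, with 17 above 0, a median of 0.005 and 0 at an unadjusted p under 0.05. The number above 0 was 4 without melanoma plus ICI replicate 3, 11 without control replicate 3 and 10 without control replicate 4.

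**Figure D4:**
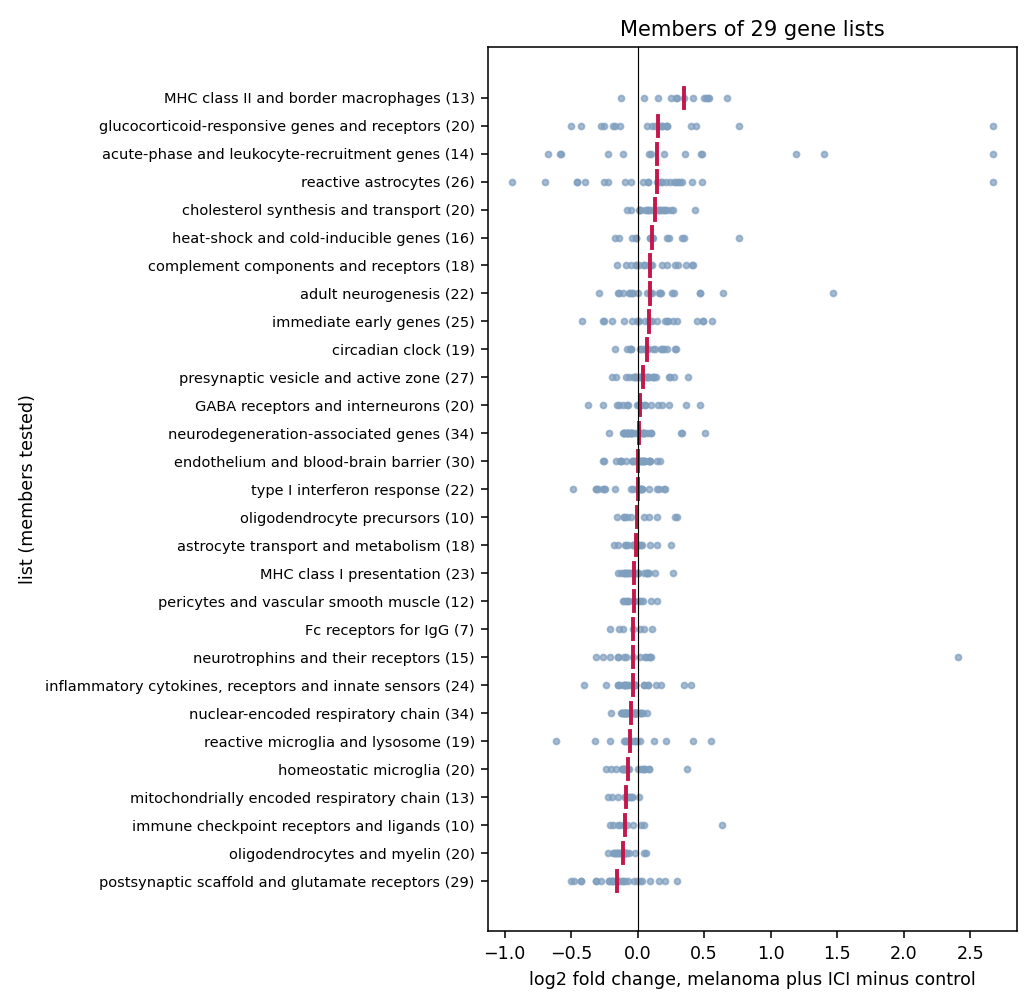
Log2 fold changes of the tested members (points, x axis) of 29 gene lists, ordered by their median (red bar), with the number tested in brackets. Medians run from 0.35 in MHC class II and border macrophages to -0.15 in postsynaptic genes, and the point at 2.67 is Lcn2, which stands in 3 lists.

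Postsynaptic genes were more often lower than higher. Of 29 genes of the postsynaptic scaffold and of glutamate receptors, 23 were below 0 (79.3% against 49.3% of all genes), at a median of -0.15, and 0 had an unadjusted p under 0.05. Without control replicate 4, 7 had one and were lower, and without control replicate 1, 4, in fits where 5.85% and 5.19% of all genes had one. DESeq2 gave 2 lower (2.66% of all genes), and weighted voom 1 higher and 3 lower (5.35%). Dlg4, which encodes PSD-95, was at 795, 940, 899, 775 and 818 CPM in control and at 706, 802, 793, 711 and 779 CPM in melanoma plus ICI. Its groups overlapped, and the log2 fold change was -0.16 (95% interval -0.34 to 0.02). Camk2b, a subunit of the calcium/calmodulin kinase of the spine, had a log2 fold change of -0.43 (95% interval -0.87 to 0.02), and Ppp1r9b, the spine scaffold spinophilin, stood at -0.21. With the 4 tissue scores as covariates 14 of 29 were below 0 and the median was 0.001.

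Presynaptic genes lay near 0, with 18 of 27 above it (66.7% against 50.7% of all genes) and a median of 0.04. With single libraries left out, that median ran from -0.004 to 0.064. Syp, the vesicle protein synaptophysin, averaged 1180 ± 247 and 1190 ± 201 CPM, and the interval of its log2 fold change ran from -0.26 to 0.30. Bdnf, the neurotrophin that strengthens hippocampal synapses, was at 29.4, 55.4, 38.5, 56.4 and 43.5 CPM in control and at 58.3, 33.2, 23.1, 30.4 and 41.1 CPM in melanoma plus ICI. The groups overlapped, and the log2 fold change of -0.26 was 0.23 with the 4 tissue scores as covariates. Of 34 neurodegeneration-associated genes, 18 were above 0 and 32 intervals lay within 1.5-fold. Ide, the protease that degrades insulin and amyloid beta, was the only member with an unadjusted p under 0.05, where 2.38% of all genes had one, at 37.0 to 43.9 CPM in control and 40.8, 39.9, 47.3, 65.1 and 59.1 CPM in melanoma plus ICI. Of 22 neurogenesis genes tested, 14 were above 0 and 1 had an unadjusted p under 0.05, beside 2.38% of all genes. It was Mcm2, a helicase subunit of dividing cells, at 5.82 ± 1.09 and 7.05 ± 0.606 CPM. The number of such genes was 2 with DESeq2 (2.66% of all genes), with weighted voom (5.35%) and without control replicate 1 (5.19%). The number was 0 without the filter, with the tissue scores as covariates and without control replicate 3 or 4 or melanoma plus ICI replicate 1, 2 or 4.

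The side on which respiratory chain and myelin genes lay depended on single libraries. Of 34 nuclear-encoded respiratory chain genes, 29 were below 0, at a median of -0.05. Without control replicate 4, 34 of 34 were above 0, at a median of 0.11. The mitochondrially encoded genes behaved alike, with 12 of 13 below 0 (median -0.09) and 12 above 0 without that library (median 0.13). The control score of the latter list was 7.77 in replicate 4 and 6.82 to 6.94 in the other 4. Of 20 myelin genes, 18 were below 0 (median -0.11), 8 without control replicate 5 (median 0.03) and 11 without melanoma plus ICI replicate 2. Mbp, myelin basic protein, ranged from 1440 to 4170 CPM within the control group alone. With weighted voom, 28 of 34 nuclear-encoded and 11 of 13 mitochondrially encoded genes were above 0.

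Among the 43 lists with tested members, the medians farthest from 0 in the main analysis belonged to markers of the striatum, the dentate gyrus and field CA1. With weighted voom the farthest were meninges (0.69), dentate gyrus (-0.66) and ependyma (0.55), ahead of CA1 (-0.36) and striatum (0.27). In the main analysis all 12 markers of dentate granule cells were below 0, with a median log2 fold change of -0.73. Of these, 5 had an unadjusted p under 0.05 (Lct, Dsp, Tdo2, Glis3 and Prox1), none past the adjusted threshold. Of all genes, 1.28% had one and were lower. That number was 1 without control replicate 2, 2 without control replicate 3, melanoma plus ICI replicate 3 or replicate 5, 8 without melanoma plus ICI replicate 2 (2.29% of all genes) and 9 without control replicate 1 (5.19%), and the median ran from -0.88 to -0.45. Prox1 was at 38.5, 181, 105, 66.1 and 109 CPM in control and at 47.1, 66.8, 21.9, 75.9 and 53.8 CPM in melanoma plus ICI. Dsp, desmoplakin, was at 6.39, 164, 63.4, 23.2 and 83.8 CPM in control and at 15.3, 21.3, 9.56, 34.3 and 14.3 CPM in melanoma plus ICI. Control replicate 2 held the highest and control replicate 1 the lowest Dsp value, so the groups overlapped. The dentate score was 5.10 ± 0.73 in control and 4.34 ± 0.52 in melanoma plus ICI (SD, n = 5). Its part in other genes was examined only through the covariates named above.

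The other regions varied with single libraries. All 12 striatal markers were above 0 at a median of 0.77, but without melanoma plus ICI replicate 3 the median was 0.05 and 6 were above 0. The same library had the lowest score of CA1 markers, 4.01 against 5.17 to 5.67 in the other 4, and of dentate markers, 3.49. Among the 9 CA1 markers, 7 were below 0 and Pou3f1, a transcription factor of upper pyramidal cells, averaged 62.9 ± 26.6 and 36.8 ± 14.2 CPM (log2 fold change -0.77, 95% interval -1.41 to -0.14). Of 13 markers of CA3 and CA2, 5 were above and 8 below 0, at a median of -0.07, and the lowest was Iyd, which averaged 3.92 ± 2.59 and 1.42 ± 0.758 CPM (log2 fold change -1.46, 95% interval -2.85 to -0.07). Choroid plexus scores ran from 0.81 to 6.56 in control and from 1.23 to 6.68 in melanoma plus ICI, with low values in both groups.

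**Figure D5:**
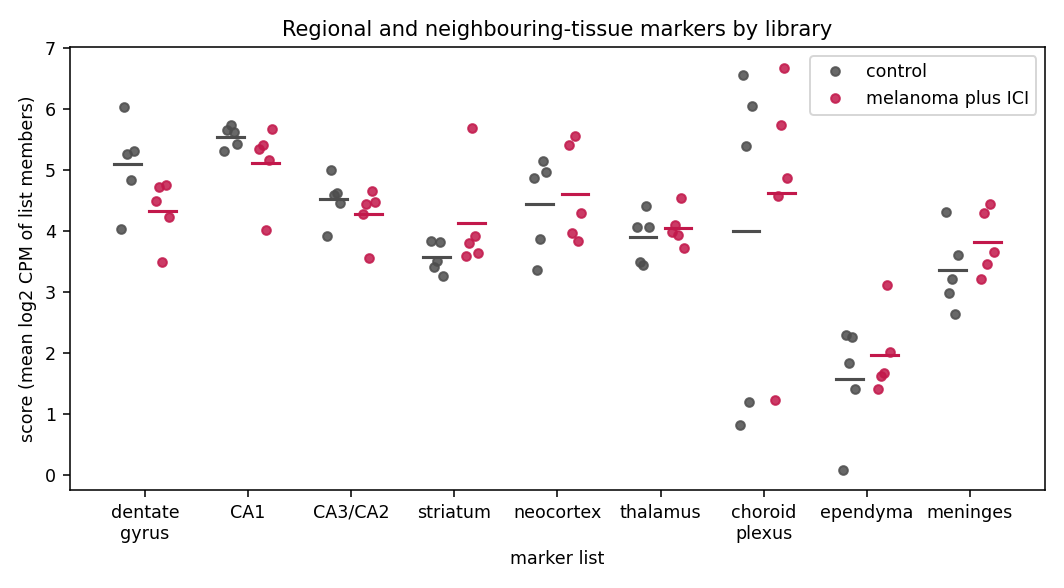
Score of each library (mean log2 CPM of the listed markers, y axis) for 9 marker lists (x axis), with the group mean as a bar. Dentate gyrus scores average 5.10 in control and 4.34 in melanoma plus ICI, and melanoma plus ICI replicate 3 is the point at 5.70 in the striatum list.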

How the data were processed

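Hippocampal RNA was sequenced in bulk, and the analysis started from 1 table of raw counts per gene and library. These counts are the values deposited by the authors and are called raw per the labels. Totals per library were 22039606 to 25735149. The submitters' processing notes name STAR 2.5.2b and DESeq2 1.16.1. Their roles, the counting program, strand use and the genome build are not given in the sources used here. Of 49671 genes, 49326 received a symbol from a GRCm38 annotation, and 45214 have its start and end.

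Groups came from sample titles. Genes were kept by filterByExpr (minimum count 10, minimum total 15), scaled by TMM and tested with edgeR 4.0.16 in R 4.3.3 over all 20 libraries, with Benjamini-Hochberg adjustment over 18427 genes at 0.05. CPM is counts per 1000000 of the scaled library size. SE is the log2 fold change over the square root of F. Gene names follow a rule: per direction the 10 smallest p at a mean of at least 1 CPM, the leading and most abundant members of each list and any member with an unadjusted p under 0.05, and a set of 12 genes. Some genes that the rule names, among them 1 of the 10 higher ones, are not reported here, and counts over the named 19 leave it out. Members and 44 gene lists were chosen with earlier results of these data known, 2 listed symbols matched no gene, and lists are described without a test. Others (Cd3e, Cd8a, Foxp3, Cd247, Gzmb, Prf1, Pmel, Dct, Tyrp1, Abcg1 and Cxcl1) were picked after their values were seen. Chi-square statistics over genes of 20 library pairs lay between 12.9 and 120 per gene, so none agreed within sampling noise. The labels give no batch or date, and the numbers in the library names of both groups do not interleave, so any batch in that order cannot be told apart from the group. Alternatives used DESeq2 1.42.0, limma 3.58.1 voom with sample quality weights, other filters and scalings, the replicate block, tissue covariates and fewer libraries.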

Additional observations from a re-analysis of the deposited data

Results flagged for a closer look

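Of 238 sets of 5 libraries examined, 20 held a value whose gap to the nearest other exceeded 0.71 of the range, the critical value of Dixon's test. Chance gives such a gap in about 1 set in 20 (0.05), and lists and genes share libraries. Control replicate 4 gave 10 of them. It had scores of 7.77 for mitochondrially encoded and 7.56 for nuclear-encoded respiratory chain genes, above the other controls, and 3.96 for oligodendrocyte precursors, below them. In CPM, it was highest in Aif1 (5.17), Apoe (2130), C1qa (54.8), mt-Co1 (16500) and Nfkbia (23.1), and lowest in Apcdd1, a Wnt inhibitor of vessels (20.8), and Slc1a2 (1430).

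Melanoma plus ICI replicate 3 gave 5. It had a striatal score of 5.70 and was highest in Tmem119 (21.8 CPM), and lowest in Gfap (190 CPM), Dguok (14.2 CPM) and Gm46123 (0.735 CPM). Replicate 1 gave a heat-shock gene score of 6.84 and Icam1 at 19.6 CPM. Single values were Nlrp3, an inflammasome sensor, at 1.59 CPM in melanoma plus ICI replicate 2, Syt1, a calcium sensor of vesicles, at 1610 CPM in replicate 5, and Ch25h at 0.705 CPM in control replicate 1.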

How the results depend on the processing

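No alternative brought a gene past the adjusted threshold, and the smallest adjusted p was 0.782, without control replicate 4. The number of genes at an unadjusted p under 0.05, 438 in the main analysis, was 985 with limma voom and sample quality weights together, 992 without a filter, 261 with only the 10 libraries and 713 without control replicate 4 and melanoma plus ICI replicate 1 together, and between 297 and 1089 when single libraries were left out. Genes without overlap, 56 in the main analysis, numbered 106 without a filter, 374 without those 2 libraries, and 91 to 290 when single libraries were left out, where fewer samples make non-overlap easier. The replicate numbers did not pair the libraries: 1 of 5 same-numbered pairs correlated over 0.1 and none best with its own number. The replicate block gave 345 genes at an unadjusted p under 0.05, and 0 past the adjusted threshold.

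Of 1361 values of named genes under alternatives, 28 had the other sign. The cause was not tested, except as said for the covariates. With weighted voom these were Apoe (0.025), C1qa (0.026), Lcn2 (-0.175) and Sgk1 (-0.058). With tissue scores as covariates they were Bdnf (0.234), Camk2b (0.01), Cd74 (-0.078), Dsp (0.051), Gfap (0.026), Prox1 (0.021) and Tdo2 (0.014). Dsp, Prox1 and Tdo2 belong to the dentate list whose score is a covariate, so that fit takes out their difference by construction. Without both libraries named above they were Apoe (0.011) and Icam1 (-0.071). With single libraries left out, log2 fold changes ran from -0.017 to 0.279 in Aif1, -0.074 to 0.131 in Syp, -0.123 to 0.022 in Apoe, -0.242 to 0.07 in C1qa, -0.087 to 0.021 in mt-Co1, -0.186 to 0.016 in Slc1a2 and -0.145 to 0.003 in Cx3cl1. The CPM difference ran from -0.00667 to 0.0489 for Pdcd1 and from -0.0322 to 0.0621 for Ctla4, lowest without melanoma plus ICI replicate 5 and replicate 2. Under 1 CPM most intervals reached beyond 2-fold.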
